A study of Mus musculus with 6 samples.

Results

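The collagens described here are those that form fibrils and networks outside the basement membrane. They were taken as every row of the deposited gene table whose symbol reads Col, a number, the letter a and a number, without types IV, VII, XV, XVII and XVIII, which build or anchor basement membranes. The rule found 33 genes among 23337. Averaged over the 6 libraries, 23 of them reached 10 normalized counts, the level taken as detected, against 13671 genes of the whole table. A normalized count is a gene's read count divided by one size factor per library. The values were those of basal cell carcinoma, a skin tumour of keratinocyte origin, isolated from mouse ear epidermis.

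The 6 libraries came from mice that all carried R26-SmoM2/+ and K14CreER. SmoM2 is an active form of the Hedgehog transducer Smoothened, and K14CreER is a tamoxifen-activated recombinase driven by a keratin promoter of basal keratinocytes. Tamoxifen was given at 4 weeks of age and the tumour cells were taken 6 weeks later. The 3 wild-type libraries carried no floxed Yap allele, and the 3 knockout libraries came from mice that were Yapfl/fl in addition. YAP is a transcriptional co-activator that works through TEAD factors. Recombination was directed at Krt14-expressing cells, so other cells in a sample would keep Yap. The study's title names YAP, TEAD and the AP-1 protein c-JUN, and the comparison of knockout with wild type asked how the collagen transcripts differed between such tumours. The labels do not say whether each library was a separate animal, so p-values measure only the spread between these libraries.

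Collagen chains wind around each other into a rigid helix, and the type sets what the helix builds. Fibrillar collagens assemble into the banded fibres of dermis, tendon and bone, fibril-associated collagens sit on the surface of those fibres, and types II, IX, X and XI form the matrix of cartilage. In skin most of this matrix is made by dermal fibroblasts, while the epidermis rests on basement-membrane collagens that its keratinocytes help to make.

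Yap1, the targeted gene, had normalized counts of 5765, 6004 and 5573 in the 3 wild-type libraries and of 591, 773 and 1764 in the 3 knockout libraries, in the order of their numbers. All 3 knockout libraries lay below the wild-type ones, and knockout library 3 kept the most. The log2 difference was −2.63 ± 0.39 (SE, limma), with an adjusted p of 0.517 in limma, 0.69 in edgeR and 1.07e-07 in DESeq2 (Benjamini-Hochberg). Each library held 15.4 to 25.3 M recovered reads (M, 1e6), so that 3 reads, the upper limit a count of 0 allows, equalled 2.47 to 3.90 normalized counts. The library codes in the labels begin with DM22 for replicates 1 and 2 of each genotype and with DM24 for replicate 3. The DM24 libraries were the shallower (15.4 and 15.6 M) and showed Xist at 59594 and 58654 and the Y-linked Ddx3y at 0, while the DM22 libraries had Xist at 8.62 to 15.1 and Ddx3y at 3202 to 3426. With genotype held, limma found 923 genes (6.75% of those tested) to differ between the code series. What the codes mark is not given in the sources used here, and sex, depth and code cannot be told apart.

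Krt5, the keratin that marks basal keratinocytes, stood between 223225 and 347189 normalized counts in every library. All 33 members together made up 0.0812% of all normalized counts, against 0.593% for the 10 basement-membrane and anchoring collagens. Most members were therefore minor transcripts in these epidermal tumour cells. Summed over these 33 genes, the wild-type libraries held 12312, 12200 and 22408 normalized counts and the knockout libraries 16101, 16850 and 21037. Wild-type library 3 was the highest of all 6, so the groups overlapped in the sum. In bulk samples, fewer cells of a type and less RNA per cell cannot be told apart.

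Levels between genes were compared per kilobase of annotated exon, as the mean and SD over the 6 libraries. The length used was the union of all annotated exons of a gene, which can exceed that of its transcripts. Genes with many alternative exons are therefore placed lower on this scale. On this scale Col14a1, a fibril-associated chain, stood first at 367 ± 266, followed by Col16a1 at 233 ± 53.8, Col9a3 at 224 ± 70.3, Col5a1 at 213 ± 55.7, Col27a1 at 209 ± 52.9 and Col12a1 at 185 ± 83.0. These neighbours in the order did not differ beyond their spread. Col6a1 at 152, Col5a2 at 108, Col9a2 at 107 and Col23a1 at 90.8 came next. The type I chains of dermal fibres stood far lower, Col1a1 at 18.02 ± 18.9 and Col1a2 at 9.78 ± 6.44, and the lowest detected members were Col24a1 at 1.70 and Col25a1 at 0.984. For scale, Col17a1, the hemidesmosomal collagen of basal keratinocytes, reached 12726 per kilobase and Col7a1, the anchoring-fibril collagen, 1738.

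**Figure D1:**
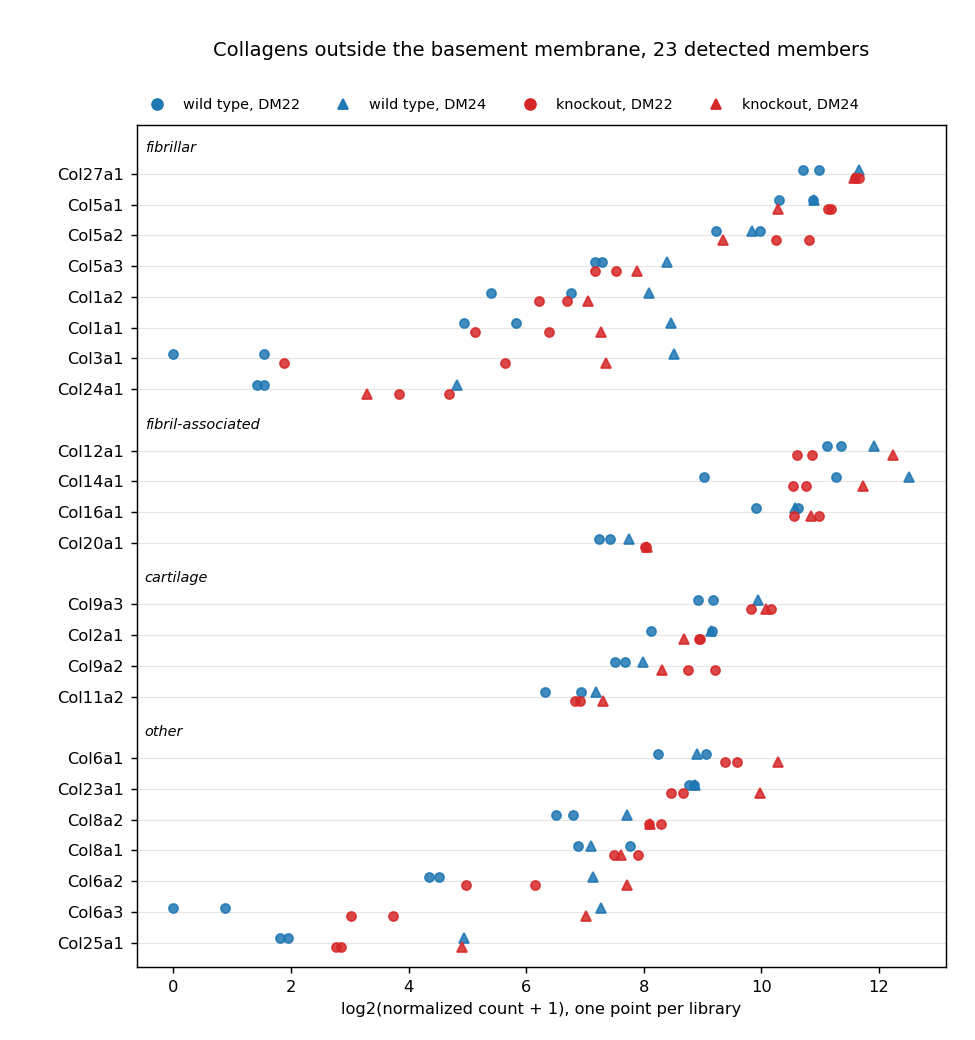
Level of each of the 23 detected members in each library, as log2(normalized count + 1) on the horizontal axis, with members grouped by class on the vertical axis. Blue points are wild type and red points knockout, circles are DM22 and triangles DM24 libraries. The DM24 triangles lie to the right of the circles for Col1a2, Col3a1, Col6a2 and Col6a3 in both genotypes, while Col9a2, Col6a1, Col8a2 and Col20a1 show all red points to the right of the blue ones.

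Each gene was placed in a single class. Types II, IX, X and XI were counted as cartilage only, also where they form or decorate fibrils. By class, all 8 fibrillar genes, 4 of 6 fibril-associated genes, 4 of 7 cartilage genes and 7 of 12 other genes were detected. The 10 members below the level were Col19a1, Col22a1, Col10a1, Col11a1, Col9a1, Col28a1, Col6a4, Col6a5, Col6a6 and Col13a1. The members just inside the threshold were Col25a1 and Col24a1, with means of 12.73 and 12.98, and those just outside were Col19a1 at 5.08 and Col10a1 at 4.97. Detection left some collagen types without a chain that they are built with. Col9a1 was at 0 in 4 libraries and at 0.892 and 0.824 in knockout libraries 1 and 2, while its partner chains Col9a2 and Col9a3 were detected. Col11a1 was at 0 in all 4 DM22 libraries and at 10.4 and 7.59 in the DM24 ones, while Col11a2 was detected. Col10a1, the collagen of hypertrophic cartilage, stood at 3.36, 2.87 and 3.90 in wild type and 7.13, 4.95 and 7.59 in knockout. Its groups did not overlap, but these values sit near the counting limit and it was not tested. Col13a1, a transmembrane collagen, was at 0 in all 6 libraries.

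Across the detected members more log2 differences were above 0 than below, and no member passed limma, the main test. The log2 difference, knockout minus wild type on the log2(normalized count + 1) scale, was above 0 in 19 of 23 members, where 49% of all tested genes were above 0. The count was 15 in DESeq2 and edgeR, in which Col3a1, Col14a1, Col2a1 and Col6a3 turned below 0, and 16 to 23 without single libraries. The median over the members was 0.45, against −0.00 over all tested genes. By class, 5 of 8 fibrillar members were above 0 with a median of 0.31, 3 of 4 fibril-associated members with 0.25, 4 of 4 cartilage members with 0.44 and 7 of 7 other members with 0.94. Single libraries moved these medians by over 1.5 times. Without wild-type library 3 they were 0.67, 0.62, 0.68 and 1.51 in the order given, and without wild-type library 1 the fibrillar median was −0.048 and that of the other members 0.45. For the fibril-associated members, dropping wild-type library 2 gave 0.13, dropping knockout library 1 gave 0.43 and dropping knockout library 3 gave 0.055, and that of the other members was 0.54 without wild-type library 2 and 0.45 without knockout library 3. The basement-membrane and anchoring collagens gave 5 of 10 above 0 and a median of −0.02.

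Calls depended on the tool. Limma, with Benjamini-Hochberg adjustment at 0.05, called 0 of 23 members and 0 of 13671 genes (0%). At an unadjusted p under 0.05 limma listed 5 members and 759 genes (5.55%). EdgeR's quasi-likelihood test on the recovered reads also called 0 members and 0 genes, with 4 members and 760 genes (5.56%) at an unadjusted p under 0.05. DESeq2 on the same reads called 1 member, Col9a2, among 72 genes (0.527%; 0.176% higher in knockout). With the replicate number as a block DESeq2 called 3 members, Col9a2, Col6a1 and Col8a2, among 170 genes (1.24%; 0.41% higher). With the code series as a term it called the same 3 members among 299 genes (2.19%; 0.724% higher). All of these member calls were higher in knockout. Within DM22 the replicate block rests on the labels' numbers alone. In the DM22 libraries alone DESeq2 called 4 members, Col9a3, Col27a1, Col9a2 and Col8a2 (1.97% of genes; 0.892% higher), and limma 0 (0.0146% of genes). Limma with the block or the series called 0 members, with 8 members at an unadjusted p under 0.05 in each fit against 9.53% and 11.3% of all genes.

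The knockout libraries lay wholly above the wild-type ones for 4 of 23 members, Col9a2, Col8a2, Col6a1 and Col20a1, and wholly below for 0. Among all tested genes 11% had groups that did not overlap, 5.08% with knockout higher and 5.87% with knockout lower. In the DM22 libraries alone, 2 against 2, 13 members lay wholly above and 2 wholly below, against 44.7% of genes without overlap and 20.8% with knockout higher. The RefSeq promoters of Col9a2, Col8a2, Col6a1 and Col20a1 on GRCm38.p6 (250 bases before to 50 after the RefSeq start) are shown. These are the members whose groups did not overlap over all 6 libraries. The windows are chr4:121039316-121039615 on the plus strand for Col9a2, chr4:126286544-126286843 on the plus strand for Col8a2, chr10:76725995-76726294 on the minus strand for Col6a1 and chr2:180986285-180986584 on the plus strand for Col20a1. Capitals mark a match to GGAATG or CATTCC, the core that TEAD factors bind, or to TGANTCA, the AP-1 site, searched on both strands.
Col9a2: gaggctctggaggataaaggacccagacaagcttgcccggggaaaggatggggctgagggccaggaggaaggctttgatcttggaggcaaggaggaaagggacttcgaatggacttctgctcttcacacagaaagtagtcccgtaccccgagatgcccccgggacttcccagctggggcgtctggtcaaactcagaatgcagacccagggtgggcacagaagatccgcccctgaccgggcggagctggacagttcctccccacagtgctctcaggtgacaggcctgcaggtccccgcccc
Col8a2: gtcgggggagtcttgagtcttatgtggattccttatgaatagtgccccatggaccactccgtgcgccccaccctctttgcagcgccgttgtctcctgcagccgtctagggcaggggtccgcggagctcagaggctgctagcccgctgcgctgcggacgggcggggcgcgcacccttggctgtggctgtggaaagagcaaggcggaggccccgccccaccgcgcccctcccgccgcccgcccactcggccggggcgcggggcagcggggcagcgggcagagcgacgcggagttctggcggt
Col6a1: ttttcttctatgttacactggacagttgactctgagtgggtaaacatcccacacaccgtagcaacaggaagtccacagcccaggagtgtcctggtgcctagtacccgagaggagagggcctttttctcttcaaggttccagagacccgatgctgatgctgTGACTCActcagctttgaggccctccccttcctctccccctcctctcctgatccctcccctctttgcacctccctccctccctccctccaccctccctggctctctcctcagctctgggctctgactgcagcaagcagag
Col20a1: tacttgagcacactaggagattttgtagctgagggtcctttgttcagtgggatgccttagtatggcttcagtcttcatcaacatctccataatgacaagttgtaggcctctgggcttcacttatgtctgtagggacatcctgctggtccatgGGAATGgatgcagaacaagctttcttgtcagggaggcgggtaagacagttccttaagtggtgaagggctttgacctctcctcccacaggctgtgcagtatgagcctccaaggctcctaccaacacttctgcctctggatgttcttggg
RefSeq promoters were found for 26 of the 33 members, with 28 promoters in all, and for 17 of the 23 detected ones. A member is counted if any of its promoters matches, while the percentages are per promoter. Col6a2 has a promoter with the TEAD letters and another without. The TEAD letters occur in 3 of those 17, Col20a1 with its first base 98 bases before the start, Col3a1 at 168 and Col6a2 at 115 bases before it, and in 14.7% of 32851 promoters of the same length. The AP-1 letters occur in 1 of 17, Col6a1, as TGACTCA 90 bases before the RefSeq start, and in 7.81% of promoters. Among these detected members, a RefSeq start used here lies inside the GENCODE gene span for Col6a1, Col6a2, Col9a2, Col1a2, Col25a1 and Col27a1. The same holds for some undetected members. The Col6a1 and Col6a2 matches therefore lie within the annotated gene, not upstream of it. The letters TGGGTGGTC or GACCACCCA, a GLI site of the Hedgehog pathway, occur in 0 of 17 and in 0.253% of promoters. A match is a description of the letters, and its absence says only that they are not in this window.

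**Figure D2:**
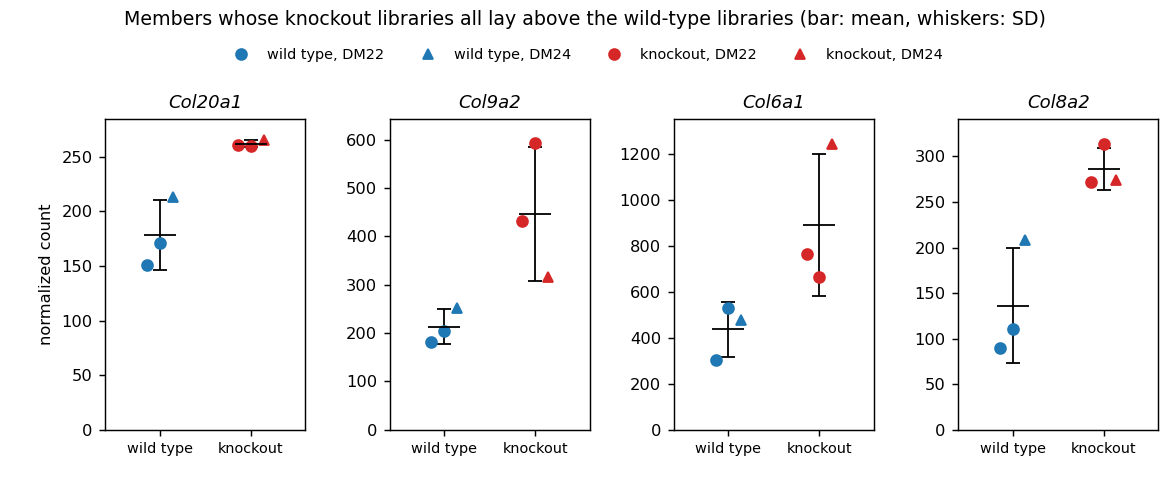
Normalized counts of Col20a1, Col9a2, Col6a1 and Col8a2 in each library, on linear axes that start at 0, with the bar at the group mean and whiskers of 1 SD (n = 3 per group). Every knockout point lies above every wild-type point, and the gap is narrowest for Col20a1, between 213 and 260.

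Among the cartilage collagens, the detected members were 1 chain of type II, 2 of type IX and 1 of type XI. Col9a2, the alpha2 chain of type IX collagen that decorates cartilage fibrils, lies at chr4:121039385-121055322 on the plus strand. It stood at 182, 204 and 252 normalized counts in wild type (libraries 1, 2 and 3) and at 433, 592 and 316 in knockout. The knockout libraries were all higher, knockout library 3 the least so. The means were 213 ± 36.2 and 447 ± 138 (SD, n = 3 each), and the log2 difference was 1.03 ± 0.25 (SE, limma), a fold of 2.05 on that scale. Adjusted p-values (Benjamini-Hochberg) were 0.722 in limma, 0.736 in edgeR and 0.0363 in DESeq2, and the blocked DESeq2 fit gave 0.0326 and the series fit 0.0132. The DESeq2 call without a term was lost without wild-type library 1 (adjusted p = 0.69), wild-type library 2 (0.0965), knockout library 1 (0.218) or knockout library 2 (0.464). It was kept without wild-type library 3 (0.0136) or knockout library 3 (0.000212), and the DM22 libraries alone gave a log2 difference of 1.42 (DESeq2 adjusted p = 8.07e-06). Within the DM24 pair the log2 difference was 0.32, against 1.25 and 1.53 in pairs 1 and 2.

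Col9a3, the alpha3 chain of the same type, stood at 483, 581 and 985 in wild type and at 905, 1144 and 1080 in knockout. Wild-type library 3 was higher than knockout library 1, so the groups overlapped. The log2 difference was 0.67 ± 0.27 (SE), with limma's adjusted p at 0.885 and DESeq2's at 0.688, 0.117 when blocked and 0.0732 with the code series. In the DM22 libraries alone DESeq2 gave 0.95 with an adjusted p of 0.000436, and the DM24 pair differed by 0.13. Col9a3 shares 6.07% of its exon bases with Tcfl5 on the opposite strand, whose mean was 26.0 normalized counts, and the library kit does not mark strand. Col2a1, the fibril-forming chain of cartilage, stood at 572, 277 and 562 in wild type and at 490, 494 and 412 in knockout, with means of 470 ± 168 and 465 ± 45.9. Here the knockout values lay inside the wild-type range, and the log2 difference of 0.05 ± 0.29 was smaller than its error. Col11a2, a type XI chain, ranged from 79.0 to 158 normalized counts over the 6 libraries with a log2 difference of 0.21 ± 0.27.

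Of 10 chondrocyte markers, 9 had means below 10 normalized counts. Their summed level was 15.1, 14.4 and 78.0 in wild type and 18.7, 21.4 and 26.6 in knockout. Most of the highest sum was Matn4, at 72.8 in wild-type library 3. Acan, the main proteoglycan of cartilage, was at 0 in 5 libraries and at 1.30 in wild-type library 3, and Matn1, Epyc and Ucma were at 0 in all 6. Lect1 (Cnmd), a cartilage membrane protein, reached 12.4 in knockout library 2. The part of such cells in the type II and type IX values was not tested. Sox9, the transcription factor that drives cartilage genes and is also active in hair follicle keratinocytes, stood at 11428, 8708 and 9359 in wild type and at 10047, 9898 and 5919 in knockout (log2 difference −0.22 ± 0.23). It was named after its values were seen. Among the 5 transcription factors of the cartilage list, 3 were above 0 and 0 were called by limma, edgeR or DESeq2 with or without a block or series term. The largest differences were those of Sox6 (0.82 ± 1.31) and Trps1 (0.51 ± 0.43), neither larger than the spread between libraries by these tests.

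The other collagens, which form filaments, networks or transmembrane proteins, held 2 of the 3 members that DESeq2 called with the block. Col6a1, the alpha1 chain of the beaded filaments of type VI, lies at chr10:76708792-76726168 on the minus strand. It stood at 302, 531 and 479 in wild type and at 766, 667 and 1243 in knockout. The groups did not overlap, and knockout library 3 was the highest. The means were 437 ± 120 and 892 ± 308, and the log2 difference was 1.01 ± 0.30 (SE), a fold of 2.02. The adjusted p was 0.75 in limma, 0.757 in edgeR and 0.131 in DESeq2, and DESeq2 gave 0.0093 when blocked and 0.00939 with the code series. The numbered pairs differed by 1.34, 0.33 and 1.37, and the DM22 libraries alone gave 0.79 with a DESeq2 adjusted p of 0.186.

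Col8a2, the alpha2 chain of the sheet-forming type VIII, lies at chr4:126286793-126314330 on the plus strand. It stood at 90.0, 110 and 208 in wild type and at 272, 313 and 274 in knockout. All knockout libraries were higher, and wild-type library 3 stood apart from the other wild-type libraries. The means were 136 ± 63.2 and 287 ± 23.2, and the log2 difference was 1.16 ± 0.31 (SE), a fold of 2.24. Limma gave an adjusted p of 0.722, edgeR 0.757 and DESeq2 0.166, while DESeq2 gave 0.0349 when blocked and 0.00841 with the code series. The pairs differed by 1.59, 1.5 and 0.40, and DESeq2 on the DM22 libraries alone gave 1.56 with an adjusted p of 5.53e-06. Its partner Col8a1 ranged from 117 to 238 with overlapping groups and a log2 difference of 0.42 ± 0.26, above 0 in all 3 pairs.

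Col6a2 and Col6a3, the alpha2 and alpha3 chains of type VI, differed in level between the code series. Col6a2 stood at 19.3, 22.02 and 139 in wild type and at 30.3, 70.1 and 209 in knockout, and Col6a3 at 0.841, 0 and 153 and at 7.13, 12.4 and 129. Both were highest in the DM24 library of each genotype. With genotype held, limma put the DM24 libraries higher by 2.42 for Col6a2 (adjusted p = 0.027) and by 5.24 for Col6a3 (adjusted p = 0.026). Their log2 differences between genotypes, 0.94 ± 0.98 and 1.88 ± 2.11, were smaller than their errors in the fit without a series term. Col6a2 was above 0 in all 3 pairs (0.62, 1.63 and 0.58), and Col6a3 in pairs 1 and 2 but not 3 (2.14, 3.74 and −0.25). DESeq2 with the series gave adjusted p-values of 0.282 for Col6a2 and 0.386 for Col6a3. Per kilobase of exon, Col6a1 at 152 exceeded Col6a2 at 9.80 and Col6a3 at 4.22, although the chains combine in one type VI molecule. Col23a1, a transmembrane collagen, stood at 438, 460 and 466 in wild type and at 351, 407 and 1001 in knockout, a log2 difference of 0.20 ± 0.39. Knockout library 3 alone lay above the wild-type range. Without it the difference was −0.26. Col25a1, also transmembrane, ranged from 2.52 to 29.9, with the highest values in both DM24 libraries (series difference 2.58, limma adjusted p = 0.031). In the DM22 libraries it stood at 2.52 and 2.87 in wild type and at 6.24 and 5.77 in knockout. Col25a1 and Col6a3 reached the mean of 10 only through the DM24 libraries, where they were high. Their series p-values are therefore no support for a series difference.

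Fibril-associated collagens had the largest class sum in each wild-type library, with 5830, 4881 and 11418 in wild type and 5116, 5580 and 10323 in knockout. Col20a1, a small member of this class, stood at 150, 171 and 213 in wild type and at 261, 260 and 266 in knockout. The 3 knockout values were close together and above every wild-type value. The means were 178 ± 32.0 and 262 ± 3.02, and the log2 difference was 0.57 ± 0.16 (SE), positive in all 3 pairs at 0.79, 0.60 and 0.31. It was not called, with adjusted p-values of 0.722 in limma, and of 0.238, 0.438 when blocked and 0.0776 with the code series in DESeq2. The gene begins on chr2 at 180986535, and Col9a3 ends on the same chromosome at 180622189.

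Col12a1, which links fibrils to the surrounding matrix, stood at 2229, 2604 and 3847 in wild type and at 1867, 1559 and 4828 in knockout. The DM24 library was the highest of each genotype, and the series difference was 1.09 (limma adjusted p = 0.042). The genotype difference of −0.22 ± 0.45 was below 0 in pairs 1 and 2 (−0.26 and −0.74) and above 0 in pair 3 (0.33). Col14a1, which regulates fibril growth in skin and tendon, stood at 2479, 522 and 5832 in wild type and at 1485, 1733 and 3381 in knockout. Its wild-type libraries spanned the whole range of the knockout ones, and its log2 difference was 0.07 ± 0.87 in limma and −0.42 in DESeq2. Col16a1, found near the dermal-epidermal junction, ranged from 964 to 1567 in wild type and from 1497 to 2029 in knockout. It overlapped between groups, with a log2 difference of 0.43 ± 0.22 that was above 0 in all 3 pairs and DESeq2 adjusted p-values of 0.946 alone, 0.118 when blocked and 0.531 with the series.

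The fibrillar collagens split by code series. Within the DM22 pairs the median log2 difference of the 8 fibrillar members was 0.84 and 0.85, and within the DM24 pair it was −0.83, with all 8 members below 0. No other class had a median below 0 in pair 3, where the fibril-associated members gave 0.29, the cartilage members 0.13 and the other members 0.51. Higher in pairs 1 and 2 and lower in pair 3 were 5 of the 8 fibrillar members and 7 of all 23, against 12.1% of all tested genes. Among these 7, Col3a1, Col24a1, Col6a3 and Col25a1 had wild-type DM22 values of 0 to 2.87, no higher than 3 reads. Their differences in pairs 1 and 2 thus rest on counts near the limit. Col5a1, Col5a2 and Col27a1 had the pattern at higher counts. Higher in all 3 pairs were 8 of 23 members, none of them fibrillar, against 15.3% of genes. A limma test of the difference between code series in the genotype effect called 0 members and 0 genes (0%), with 9 members at an unadjusted p under 0.05 against 5.47% of genes and a lowest adjusted p of 0.867 among the members. The split between the series is thus a description of the pairs, with 1 pair in DM24. Knockout library 3, the DM24 knockout, also kept the most Yap1, at 1764 against 591 and 773 in knockout libraries 1 and 2. The part of remaining Yap1 in the split was not tested and cannot be told apart from code, sex and depth.

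**Figure D3:**
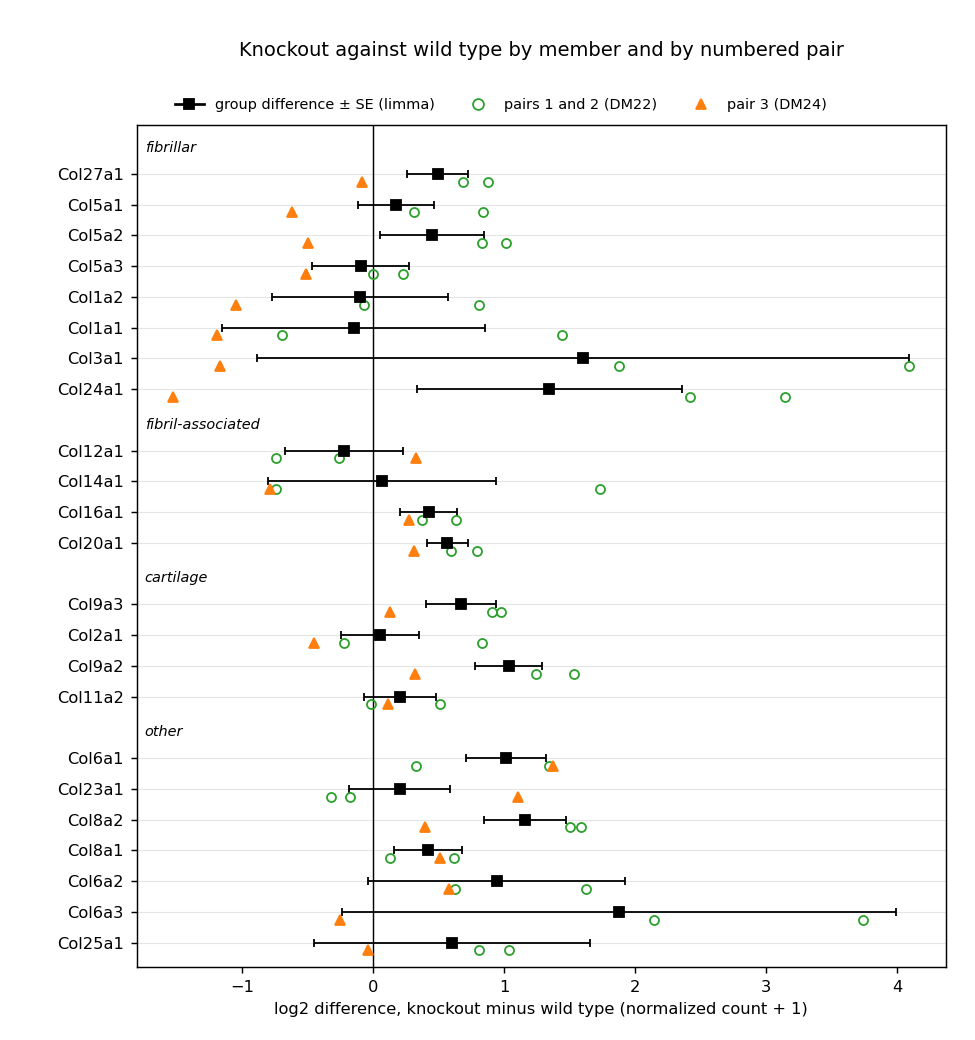
Log2 difference between knockout and wild type for each detected member, on the log2(normalized count + 1) scale. Black squares with whiskers are limma's group difference ± SE, green circles the DM22 pairs 1 and 2, and orange triangles the DM24 pair 3. All 8 fibrillar triangles lie left of 0, while Col6a1 and Col8a2 have all 3 pairs right of it.

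Col27a1, a fibrillar collagen of cartilage and some epithelia, had the highest normalized count of its class, at 1671, 2017 and 3237 in wild type and 3071, 3241 and 3059 in knockout. Wild-type library 3 reached the knockout level and the other wild-type libraries did not. The log2 difference was 0.49 ± 0.24, and DESeq2's adjusted p was 0.953 over all libraries and 1.87e-05 in the DM22 libraries alone (0.78). Col5a1, the alpha1 chain of the type V collagen that nucleates and limits dermal fibrils, stood at 1253, 1886 and 1898 in wild type and 2244, 2340 and 1238 in knockout. Knockout libraries 1 and 2 were above all wild-type libraries and knockout library 3 was below them, for a log2 difference of 0.18 ± 0.29. Col5a2, the type V alpha2 chain, ranged from 599 to 1801 and had the same signs by pair, at 0.83, 1.02 and −0.50. Its knockout library 3 lay within the wild-type range. Col5a3 ranged from 143 to 337 with a log2 difference of −0.09 ± 0.37, and Col24a1 from 1.68 to 27.3 with 1.35 ± 1.01.

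Type I and type III collagens, the main fibres of dermis, were low in the DM22 libraries and higher in DM24. Col1a1 stood at 55.5, 29.7 and 354 in wild type and at 33.9, 82.4 and 154 in knockout. Col3a1 stood at 0, 1.92 and 367 in wild type and at 2.68, 48.6 and 163 in knockout. The DM24 library was the highest of each genotype for both genes, and wild-type library 3 was the highest of all. Limma put the DM24 libraries higher by 2.31 for Col1a1 (adjusted p = 0.063) and by 5.68 for Col3a1 (adjusted p = 0.07), short of the threshold. The genotype difference was −0.15 ± 1.0 for Col1a1 and 1.6 ± 2.49 for Col3a1. For Col3a1 the sign was not stable, with a wild-type mean of 122.9, a knockout mean of 71.5 and DESeq2 values of −0.78 alone, 2.65 when blocked and 3.13 with the series. Col1a2 ranged from 41.2 to 272 with a log2 difference of −0.10 ± 0.67.

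**Figure D4:**
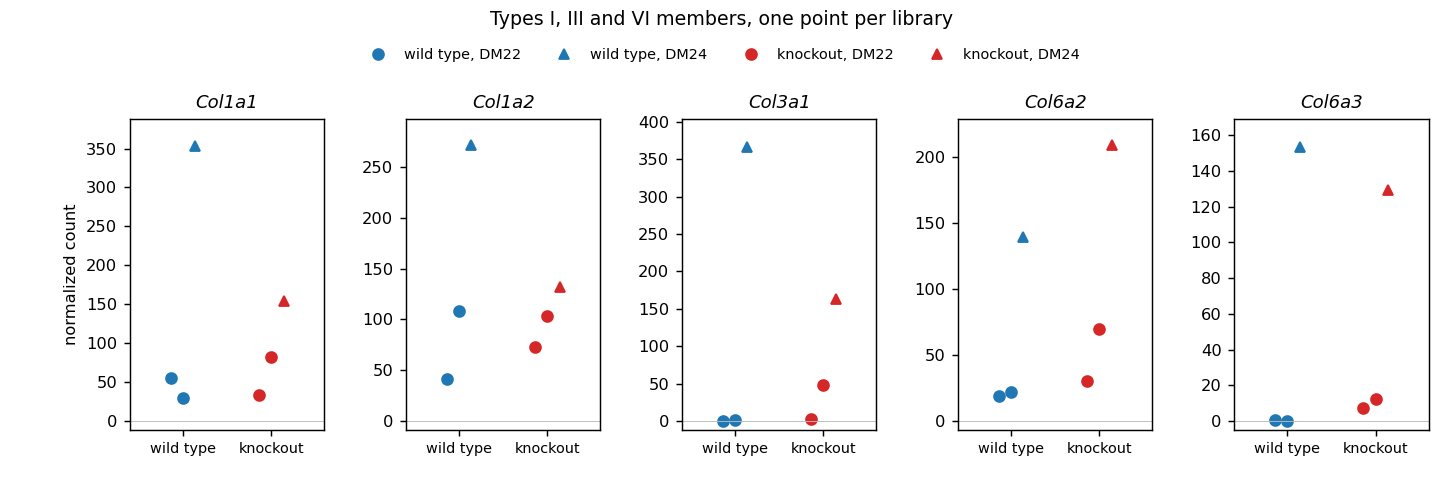
Normalized counts of Col1a1, Col1a2, Col3a1, Col6a2 and Col6a3 in each library, on linear axes, 1 point per library. The DM24 triangles are the highest point of their genotype in every panel, and wild-type library 3 is above knockout library 3 in every panel except that of Col6a2 (139 against 209).

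Fibroblast markers did not follow a single pattern. The full list of 8 summed to 6817 to 13771 normalized counts in wild type and 4407 to 10786 in knockout, lowest in the DM24 library of each genotype. Most of the sum was Fbln1 and Dcn, a dermal proteoglycan at 5275, 9253 and 2193 in wild type and 7060, 5931 and 1127 in knockout. The 4 markers with means below 10, Pdgfrb, Lum, Dpt and Mfap5, went the other way. They summed to 13.5, 0 and 46.8 in wild type and to 1.78, 4.95 and 31.6 in knockout, highest in the DM24 libraries, and were grouped after their values were seen. Endothelial markers summed to 38.3 to 93.6 in wild type and 62.4 to 97.4 in knockout, with Emcn at 0 in all 6 libraries. The part of admixed cells in the collagen differences was not tested.

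The genes that fold, process and bind collagens were examined as a list of 62, of which 47 were tested. Of these 15 were above 0 and 32 below, where 49% of all genes were above 0, with a median log2 difference of −0.12, against 0.45 for the collagen members. Limma and edgeR called 0, and DESeq2 called 1 with no added term, 2 when blocked by number and 6 when the code series entered, against 0.527%, 1.24% and 2.19% of all tested genes. Among the 21 tested genes that hydroxylate, glycosylate and fold the chains in the endoplasmic reticulum, 17 were below 0 with a median of −0.13. Lepre1 (P3h1), a collagen prolyl 3-hydroxylase, stood at 454, 480 and 519 in wild type and at 330, 351 and 333 in knockout. All knockout values were below all wild-type values, with a log2 difference of −0.52 ± 0.10 and DESeq2 adjusted p-values of 0.0148 alone, 0.177 when blocked and 0.00977 with the series, against 0.667 in limma.

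Serpinh1, the collagen chaperone HSP47, stood at 34707, 33833 and 11713 in wild type and at 24043, 27072 and 7799 in knockout. Each knockout library was below its numbered partner, by −0.53, −0.32 and −0.59, and the DM24 libraries were low in both genotypes. DESeq2 gave an adjusted p of 1.0 alone, 0.00146 when blocked and 1.37e-05 with the series, and limma 0.996. Thbs1, a thrombospondin that binds collagen fibrils, stood at 64610, 71858 and 17433 in wild type and at 47120, 45578 and 9461 in knockout. It too was below its partner in each pair, by −0.46, −0.66 and −0.88, with DESeq2 adjusted p-values of 1.0 alone, 2.65e-05 when blocked and 1.26e-07 with the series, and of 0.996 in limma.

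Among 7 tested receptors and uptake genes 4 were below 0. Itga1, the alpha subunit of a collagen-binding integrin, stood at 467, 282 and 388 in wild type and at 133, 242 and 124 in knockout. The groups did not overlap, the log2 difference was −1.22 ± 0.31, and the DESeq2 adjusted p was 0.0769, 0.054 with the block and 0.0183 with the series, against 0.722 in limma. Itga2, another collagen-binding integrin subunit, stood at 1041, 1115 and 998 in wild type and 688, 702 and 861 in knockout (−0.49 ± 0.11, DESeq2 adjusted p = 0.0628 alone, 0.14 when blocked and 0.0172 with the series, limma 0.722). It was named after its values were seen. Mrc2, a receptor for collagen uptake, gave 0.51 ± 0.25. Of 7 tested genes for propeptide removal and cross-linking 4 were below 0, and those with the largest differences were the procollagen proteases Adamts2 (0.82 ± 0.50) and Adamts14 (−0.58 ± 0.52), neither called by limma, edgeR or DESeq2. The fibril-binding list held 5 of 7 below 0, and Thbs2, another thrombospondin, stood above 0 at 1.13 ± 0.52 (DESeq2 adjusted p = 0.758 alone, 0.0822 when blocked and 0.0194 with the series, limma 0.919). It was named after its values were seen.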

How the data were processed

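Total RNA was sequenced from unstranded TruSeq version 2 libraries, per the labels' protocols. STAR 2.5 and DESeq2 1.18.1 were used with mm10 (GRCm38), per the submitters' processing notes. The counting tool and annotation are not given in the sources used here, and genes that overlap on opposite strands cannot be told apart. The authors deposited normalized counts (a signal: reads divided by a size factor) for 23337 genes in 6 libraries, and 100% of values in every library were whole reads after rescaling (tolerance 0.001 reads).

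Genes with a mean of at least 10 were tested with limma 3.58.1 (R 4.3.3, trend, robust) on log2(normalized count + 1), 3 against 3, two-sided, with Benjamini-Hochberg adjustment over 13671 genes. EdgeR 4.0.16 and DESeq2 1.42.0 on the recovered reads were alternatives, as were the replicate block, the code series, other pseudocounts, filters and scalings, and leaving out each library. An exact permutation test of 3 against 3 cannot go below p = 0.1, so none was run. The fits were run on simulated counts with the same dispersion for every gene and no code-series effect. That checks the code and does not show how the tests perform on these data.

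Both groups use the replicate numbers 1 to 3. Same-numbered libraries deviated together from their group means, with correlations over genes of 0.333, 0.327 and 0.694. All were above 0.1, and the numbers were taken to pair them. The crossed DM22 combinations were above 0.1 too. Wild-type library 1 gave 0.260 with knockout library 2, and wild-type library 2 gave 0.505 with knockout library 1. Combinations across the code series were all below 0. The check thus separated the series and did not decide the pairing within DM22. Pairs 1 and 2 and the replicate block follow the labels' numbers there.

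Coordinates are 1-based from GENCODE M21, and promoters from RefSeq (GRCm38.p6). The members and gene lists were chosen with earlier results of these data known. Per-library values were given for members called by any of the tools without a term, with the block or with the series. They were also given for those without overlap, for the 2 with the highest mean of each class and for the largest difference in either direction per class. Col6a2 met none of these criteria and was added with its values known. For the pathway lists, per-library values were given for genes called without a term or with the block, and the 2 largest differences of a list otherwise.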

Additional observations from a re-analysis of the deposited data

How the results depend on the processing

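Of 23 detected members, 11 kept the direction of their log2 difference under every alternative counted and 12 turned in at least 1. DESeq2 fits on the DM22 libraries alone or without single libraries were not part of this count. Members above 0 numbered 19, from 15 with edgeR or DESeq2 to 23 without wild-type library 3. Limma called 0 genes and members under each pseudocount, filter and scaling tried. It called 2 genes in the DM22 libraries alone, and 0 to 1 without single libraries. DESeq2 called 72 genes, 170 with the replicate block and 299 with the code series, with 1, 3 and 3 collagen members and 1, 2 and 6 pathway genes. The block changed no limma call. Alternatives chosen after seeing the data ran DESeq2 on the DM22 libraries alone (270 genes and 4 members, Col9a3, Col27a1, Col9a2 and Col8a2) and without each library (21 to 240 genes and 0 to 7 members, 7 without wild-type library 3: Col3a1, Col6a3, Col9a3, Col20a1, Col27a1, Col9a2 and Col8a2). In the DM22 libraries alone, 2 against 2, 15 members did not overlap, where 44.7% of all genes did not. Yap1 gave −2.48 in edgeR, −2.47 in DESeq2, −2.64 and −2.63 in DESeq2 with the block and the series, −3.12 in the DM22 libraries, and −3.09 to −2.31 without single libraries.

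Log2 differences turned as follows, the cause not tested. With edgeR and DESeq2, Col3a1 gave −0.78 in both, Col6a3 −0.053 and −0.055, Col14a1 −0.42 in both (−0.20 and −0.19 with the series), and Col2a1 −0.012 and −0.014 (−0.0026 and −0.0051 with the series). In the DM22 libraries alone Col23a1 gave −0.25, Col1a1 0.37, Col1a2 0.37 and Col5a3 0.12. Without single libraries the range was −0.076 to 4.18 for Col3a1, −0.26 to 0.49 for Col23a1, −0.88 to 0.88 for Col1a1, −0.89 to 0.85 for Col14a1, −0.29 to 0.23 for Col2a1, −0.043 to 0.39 for Col11a2, −0.020 to 0.47 for Col5a1, −0.10 to 1.62 for Col25a1, −0.78 to 0.57 for Col1a2, −0.32 to 0.30 for Col5a3 and −0.72 to 0.092 for Col12a1. In DESeq2 the called members stayed above 0, with 0.82 to 1.28 for Col9a2, 0.72 to 1.20 for Col6a1 and 0.86 to 1.52 for Col8a2. Members below about 4 normalized counts in a library lie near the limit of 3 reads.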
